A study of Mus musculus with 2 samples.

Results

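Cycling T cells were followed here in 2 single-cell RNA libraries of mouse pancreatic tumors. A cell was counted as a cycling T cell when at least 1 of the T cell receptor genes Cd3d, Cd3e and Cd3g and at least 2 of the cell cycle genes Top2a, Mki67, Birc5 and Cdk1 were on, and fewer than 2 of the keratin genes Krt8, Krt18 and Krt19 were on. A gene counted as on in a cell when its scaled value lay more than 1 above the lowest value of that gene in the fl/fl library, which was taken as its zero level. The scale is the standard deviation of the gene, and it does not allow levels of different genes to be compared. By this rule 150 of 9773 cells were cycling T cells, 103 of 5196 in the fl/fl library and 47 of 4577 in the cKO library. Cells that met the Cd3 and keratin parts of the rule but had fewer than 2 cycle genes on are called other T cells below (800 in the fl/fl library and 880 in the cKO library).

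The tumors were grown for 14 days in the pancreas from MT4, an organoid line of the KPC mouse model of pancreatic adenocarcinoma. The fl/fl library came from C57/BL6 mice with floxed Ahr alleles and no Cre, and the cKO library from mice with the same floxed alleles and LysM-Cre. Each library held the pooled tumors of 3 mice, sorted as live cells by DAPI and captured with the 10X Genomics Chromium system. LysM-Cre is active mainly in macrophages, monocytes and neutrophils, so the cKO mice are no model of Ahr loss within T cells, and the host T cells of both groups carried the floxed alleles. With 1 library for each genotype and no link from cells to mice, no test of genotype was possible, and all intervals given for shares are exact Clopper-Pearson 95% intervals that cover counting error only.

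A T cell that meets its antigen through the T cell receptor and its CD3 chains leaves the resting state and divides repeatedly. Division runs through DNA replication in S phase, which needs the MCM helicase, nucleotide synthesis and new histones, and through mitosis, which needs condensed chromosomes, kinetochores and a spindle of tubulin. Transcription of the replication genes is driven by E2F factors, and many mitotic genes are controlled through the CCAAT box bound by NF-Y and the cell cycle homology region, TTTGAA, bound by complexes with MuvB proteins. In tumors, dividing T cells are often described among CD8 cells with effector and inhibitory receptor genes.

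The promoters of cell cycle genes measured in these cells are shown first, because these genes separated the cycling T cells from other T cells. RefSeq promoters (GRCm38.p6, 250 bases before to 50 bases after the start) were found for 64 of 80 measured mitosis genes and 33 of 42 measured G1/S and DNA replication genes. CCAAT and TTTGAA, each on either strand, were both present in 52.9% of 68 promoters of mitosis genes, 10.3% of 39 promoters of G1/S genes and 6.95% of all 32851 promoters. An E2F-like word on either strand (TTCCCGC, its variant TTGGCGC or the further variant TTCGCGC) was present in 61.5% of the G1/S promoters, 17.6% of the mitosis promoters and 8.07% of all promoters. These matches describe letters only and are no evidence of binding. The 150 bases before the start are given for the 3 mitosis genes with the largest excess in cycling T cells whose window held both CCAAT and TTTGAA and touched no annotated exon. Capitals mark these 2 words on either strand.
Smc2 (chr4:52439071-52439220, plus strand): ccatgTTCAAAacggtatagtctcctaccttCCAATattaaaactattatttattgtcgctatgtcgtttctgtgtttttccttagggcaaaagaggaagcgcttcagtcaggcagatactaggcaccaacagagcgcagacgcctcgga
Ckap2l (chr2:129297213-129297362, minus strand): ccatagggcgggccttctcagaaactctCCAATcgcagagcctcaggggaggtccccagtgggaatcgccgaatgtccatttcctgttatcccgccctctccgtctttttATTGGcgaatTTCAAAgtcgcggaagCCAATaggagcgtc
Kif11 (chr19:37376232-37376381, plus strand): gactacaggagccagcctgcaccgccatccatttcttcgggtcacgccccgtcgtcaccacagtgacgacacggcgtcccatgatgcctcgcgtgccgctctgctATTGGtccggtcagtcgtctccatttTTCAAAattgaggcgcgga
Smc2 encodes a core subunit of condensin, Ckap2l a spindle protein, and Kif11 the motor that pushes the spindle poles apart. Counted from -1 at the base before the start, the TTTGAA word began at -30 in Ckap2l, at -19 in Kif11 and at -145 in Smc2. The 2 G1/S genes chosen in the same way for an E2F-like word, which the capitals mark, encode the large subunit of ribonucleotide reductase (Rrm1) and a subunit of the replicative helicase (Mcm7).
Rrm1 (chr7:102441545-102441694, plus strand): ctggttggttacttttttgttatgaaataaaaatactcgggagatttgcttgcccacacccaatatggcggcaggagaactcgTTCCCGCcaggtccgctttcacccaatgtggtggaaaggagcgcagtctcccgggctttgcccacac
Mcm7 (chr5:138171267-138171416, minus strand): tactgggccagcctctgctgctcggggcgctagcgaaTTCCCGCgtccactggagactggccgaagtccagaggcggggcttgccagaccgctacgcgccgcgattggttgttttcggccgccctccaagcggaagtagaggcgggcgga

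The label was checked against T cell markers and against markers of other cells. At least 3 of 12 T cell markers were on in 92 of 103 cycling T cells of the fl/fl library and in 40 of 47 of the cKO library, beside 81.6% and 87.4% of other T cells. Of these markers 3 are the Cd3 genes of the rule, which therefore partly fixes that count. Of the other 9, at least 1 was on in 99 of 103 and 43 of 47 cycling T cells, and in 11.0% and 8.94% of cycling cells without a Cd3 gene. The latter are cells with at least 2 cycle genes, no Cd3 gene and fewer than 2 keratin genes on, here and below. Cd3d was on in 75, Cd3e in 59 and Cd3g in 74 of the 103 fl/fl cells, and in 37, 29 and 35 of the 47 cKO cells. Top2a, a DNA topoisomerase, was on in 90 and 37 cells, and Mki67, which coats mitotic chromosomes, in 76 and 40 cells. Birc5, a subunit of the chromosomal passenger complex, was on in 75 and 37 cells, and Cdk1, the kinase that starts mitosis, in 47 and 19 cells. These genes chose the cells, so their levels are a description only. At the edge of the rule, the second highest of the 4 cycle genes lay between 1.02 and 8.84 in the 42 fl/fl members with exactly 2 cycle genes on, and between 0 and 0.925 in the 90 T cells with exactly 1 on. In the cKO library the same value lay between 1.18 and 4.77 in 19 members and at no more than 0.992 in 51 T cells with 1 cycle gene on.

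On the deposited UMAP most cycling T cells of both libraries lay together at the edge of the T cells. T cells made up at least 50% of the 30 nearest cells for 88 of 103 cycling T cells of the fl/fl library and 42 of 47 of the cKO library, beside 81.0% and 88.5% of other T cells. Of the 15 fl/fl and 5 cKO members that lay among other cells, 13 and 5 had exactly 1 Cd3 gene on. Among those 15 cells, 5 had at least 3 neutrophil markers on, 4 had erythroid, 2 had monocyte and 7 had T cell markers. Over all 103 fl/fl members, at least 3 markers were on in 5 cells for neutrophils, 4 for erythroid cells, 2 for monocytes, 1 for NK cells and 1 for B cells, and in none for macrophages, dendritic cells, tumor epithelium or fibroblasts (0 of 103 cells allows a share of up to 3.52%). The erythroid share was 3.88% (1.07% to 9.65%) beside 0.50% of other T cells (0.136% to 1.28%). Of the 47 cKO members 1 had macrophage, 1 monocyte and 1 erythroid markers on. In the fl/fl library the summed level of the 16 neutrophil markers ran from 0 to 21.5 in cycling T cells (median 0.01). In other T cells of that library it ran from 0 to 29.5 (median 0.01). Mmp8, Ly6g and Mpo were at 0 in every fl/fl cycling T cell. The summed level of the 13 measured NK cell markers had medians of 0.50 and 0, and Klra3, Klra4, Klra8 and Klra9 were at 0 in every cycling T cell of the fl/fl library. The part of these other cells' RNA, or of doublets, in the results was not tested, and some values without the cells that lay among other cells are given beside the results.

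**Figure D1:**
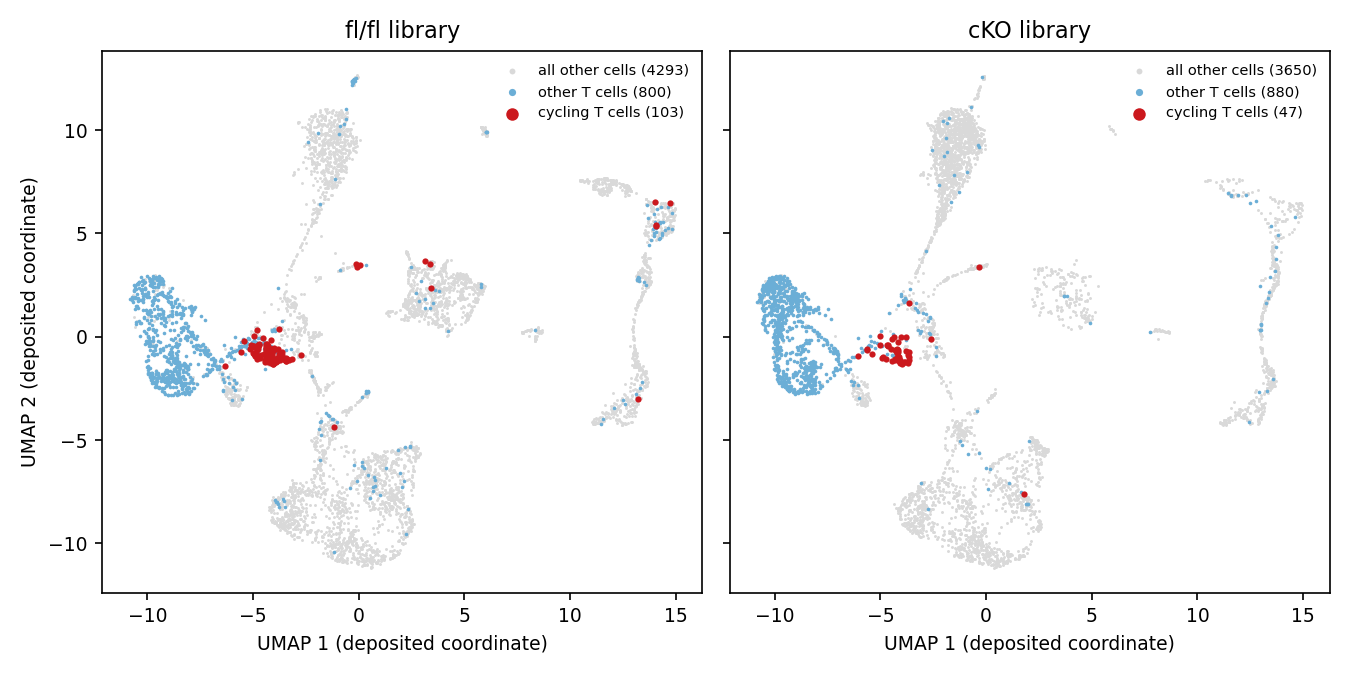
Deposited UMAP coordinates of all cells, fl/fl library left and cKO library right, with cycling T cells in red, other T cells in blue and all other cells in grey (numbers of cells in brackets). Most of the 103 and 47 cycling T cells sit in 1 small area at the edge of the T cells, with a few scattered among other cells.

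Deposited values covered 2000 genes, and no molecule counts came with them. The number of these genes above zero had a median of 191 in fl/fl cycling T cells and 96 in other T cells. Without the genes of the cell cycle lists the medians were 139 and 84. From the 5th to the 95th percentile the number ran from 66.1 to 530.7 in cycling T cells and from 43 to 220 in other T cells. No cycling T cell had a cell barcode that occurred in both libraries, whereas 656 barcodes were shared over all cells, 8 of them in other T cells of the fl/fl library and 9 in those of the cKO library. Profiles with the same barcode had a median correlation of 0.43 over the genes, against -0.01 over all pairs of cells across the libraries. The cKO values had been shifted by a step that the sources used here do not describe. A median of 15.3% of cKO cells per gene lay below the fl/fl zero level. For this reason some of the values set across libraries are also given with an estimate of that shift removed. Ahr, the targeted gene, was on in 99 of 831 fl/fl cells and 73 of 727 cKO cells that had Lyz2 on and were not T cells (11.9% and 10.0%). The deleted exon is not stated, and RNA from outside it would still be counted, so this does not check the genotype labels.

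The first comparison asked how common dividing T cells were. They made up 1.98% of all fl/fl cells (1.62% to 2.40%) and 1.03% of all cKO cells (0.755% to 1.36%). Of the T cells, 103 of 903 were cycling in the fl/fl library, or 11.4% (9.41% to 13.7%), and 47 of 927 in the cKO library, or 5.07% (3.75% to 6.69%). The difference was -6.34 percentage points, and the intervals did not overlap, but the spread between mice is not known. The cycling share was lower in the cKO library among other cells too. Cells with no Cd3 gene and fewer than 2 keratin genes on were taken first. At least 2 cycle genes were on in 7.28% of these fl/fl cells (6.47% to 8.16%) and 5.10% of these cKO cells (4.40% to 5.88%). Among keratin-positive cells they were on in 14.9% (83 of 558, 12.0% to 18.1%) and 7.86% (11 of 140, 3.99% to 13.6%), with intervals that overlapped. Cycling T cells were 22.5% of all cells with at least 2 cycle genes on in the fl/fl library (18.7% to 26.6%) and 19.8% in the cKO library (14.95% to 25.5%). These intervals overlapped.

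The size of the gap depended on the level at which a gene counts as on. From 0.5 instead of 1 the shares of T cells were 12.9% (10.9% to 15.2%) and 9.30% (7.57% to 11.3%), with intervals that overlapped, and from 1.5 they were 10.4% and 4.02%. With 3 cycle genes asked for they were 6.76% and 3.02%, with 2 Cd3 genes 11.5% and 4.86%, and among T cells that lay with T cells on the UMAP 12.0% and 5.12%. When the shift was estimated as the 0.3 quantile of each gene over the 30 nearest cells and subtracted in both libraries before the rule was applied, the shares were 9.97% and 3.81%. With the 0.1 quantile they were 11.3% and 5.18%. The fl/fl share was the higher in each of these settings.

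Dividing T cells were mainly CD8 cells. Of 381 fl/fl T cells with Cd8a or Cd8b1 on, the chains of the CD8 coreceptor, and neither Cd4 nor Foxp3 on, 68 were cycling, or 17.8% (14.1% to 22.1%). Of 96 T cells with Cd4 on, the coreceptor of helper T cells, and no Foxp3, 4 were cycling, or 4.17% (1.15% to 10.3%). Of 24 T cells with Foxp3 on, the factor that defines regulatory T cells, 2 were cycling, or 8.33%, with an interval of 1.03% to 27.0% that includes the values of the CD8 and CD4 cells. Of 398 T cells with none of these genes on, 27 were cycling, or 6.78% (4.52% to 9.72%). T cells with Cd8 on had a median of 125 genes above zero, those with Cd4 119, those with Foxp3 135 and those with none 76.5. Compared within equal ranges of the number of genes above zero outside the cell cycle lists, the cycling shares were 14.2% for CD8, 4.82% for CD4, 9.52% for Foxp3 and 5.98% for cells with none of these genes.

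In the cKO library the CD8 share was again the highest, and the intervals of the other 3 subsets overlapped. Cycling cells were 39 of 365 CD8 T cells, or 10.7% (7.71% to 14.3%), 2 of 162 CD4 cells, or 1.23% (0.150% to 4.39%), 1 of 39 Foxp3 cells, or 2.56% (0.0649% to 13.5%), and 5 of 352 cells with none of these genes, or 1.42% (0.463% to 3.28%). The CD8 shares of the 2 libraries differed by -7.16 points, and their intervals overlapped slightly, at 14.1% to 14.3%. A Newcombe 95% interval of the difference itself, again for counting error only, ran from -12.2 to -2.14 points. The share in cells with none of these genes differed by -5.36 points and the intervals did not overlap, but only 16 of the 27 fl/fl cells and 1 of the 5 cKO cells in that class lay among T cells on the UMAP, against 64 of 68 and 38 of 39 of the CD8 members. CD8 cells were 66.0% of the fl/fl cycling T cells (56.0% to 75.1%) and 39.1% of other T cells, and 83.0% of the cKO cycling T cells (69.2% to 92.4%) and 37.0% of other T cells there. The size of this gap between the libraries depended on the scaling. With the shift removed from the cKO values alone before the rule, CD8 cells were 17 of 26 cKO members, or 65.4%, beside the 66.0% of fl/fl members. With the 0.3 quantile subtracted in both libraries they were 53.4% of fl/fl and 65.4% of cKO members, and with the 0.1 quantile 65.3% and 79.5%. The cKO share was thus the larger as deposited, where the intervals overlapped, and with either quantile subtracted in both libraries. That subtraction also changed the fl/fl members, to 73 cells with the 0.3 quantile and 98 with the 0.1 quantile. Among fl/fl members that lay with T cells on the UMAP the CD8 share was 72.7%. A further 4 fl/fl and 9 cKO T cells had both Cd4 and a Cd8 gene on, of which 2 and 0 were cycling.

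**Figure D2:**
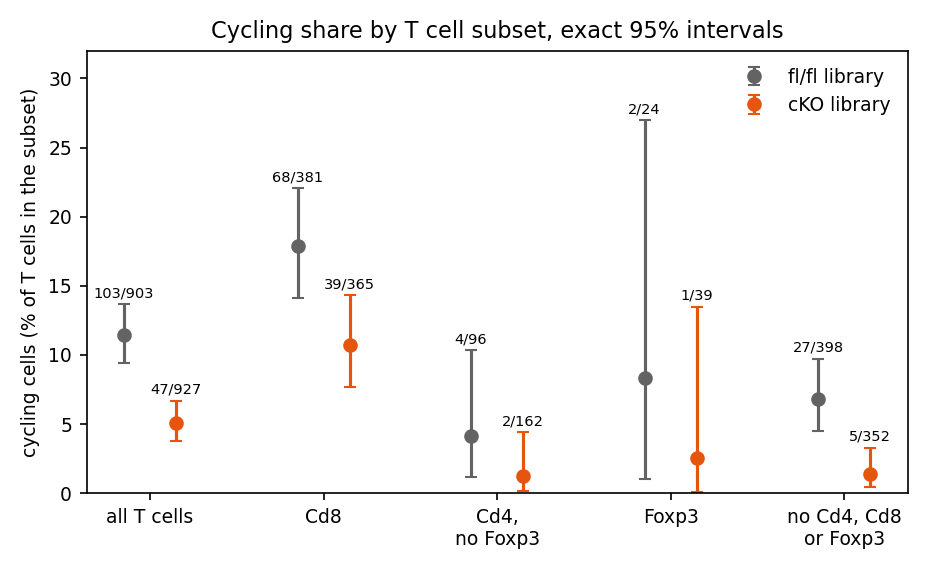
Share of T cells that were cycling in each subset (percent, y axis) in the fl/fl library (grey) and the cKO library (orange). Points are shares, bars exact 95% intervals of the counting error, and the counts stand above them. The CD8 share is the highest of the 4 subsets in both libraries, at 17.8% and 10.7%.

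The cells were next placed in the cycle by the number of G1/S and of mitosis genes that were on. Cycling T cells of the fl/fl library had a median of 6 of 42 G1/S genes on (0 to 34) and 22 of 80 mitosis genes (0 to 65), whereas other T cells had a median of 1 of each. The CD8 members had medians of 9 and 28, with a median of 208.5 genes above zero outside the cell cycle lists, more than the 139 of all members. Cycling cells without a Cd3 gene had medians of 5 and 14.5, with a median of 133 genes above zero outside the cell cycle lists, close to the 139 of the cycling T cells. Top2a, Birc5, Cdk1 and Mki67 are genes of late S phase to mitosis, so cells that have only begun replication are under-represented by the rule. At least 5 genes of both lists were on in 60 of the 103 cells, at least 5 mitosis genes alone in 37, at least 5 G1/S genes alone in 1 and neither in 5. In the cKO library these counts were 35, 9, 1 and 2 of 47. The medians were 9 G1/S and 28 mitosis genes, beside 8 and 29 in cycling cells without a Cd3 gene there. All of these cKO numbers rest on the deposited values, without the shift removed, and so do not compare directly with the fl/fl numbers. The numbers of G1/S and mitosis genes on had a Pearson r of 0.41 over the 103 fl/fl cells and of 0.086 over the 47 cKO cells. In the fl/fl cells both numbers also followed the number of other genes above zero (r = 0.60 and 0.67), which the points share.

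**Figure D3:**
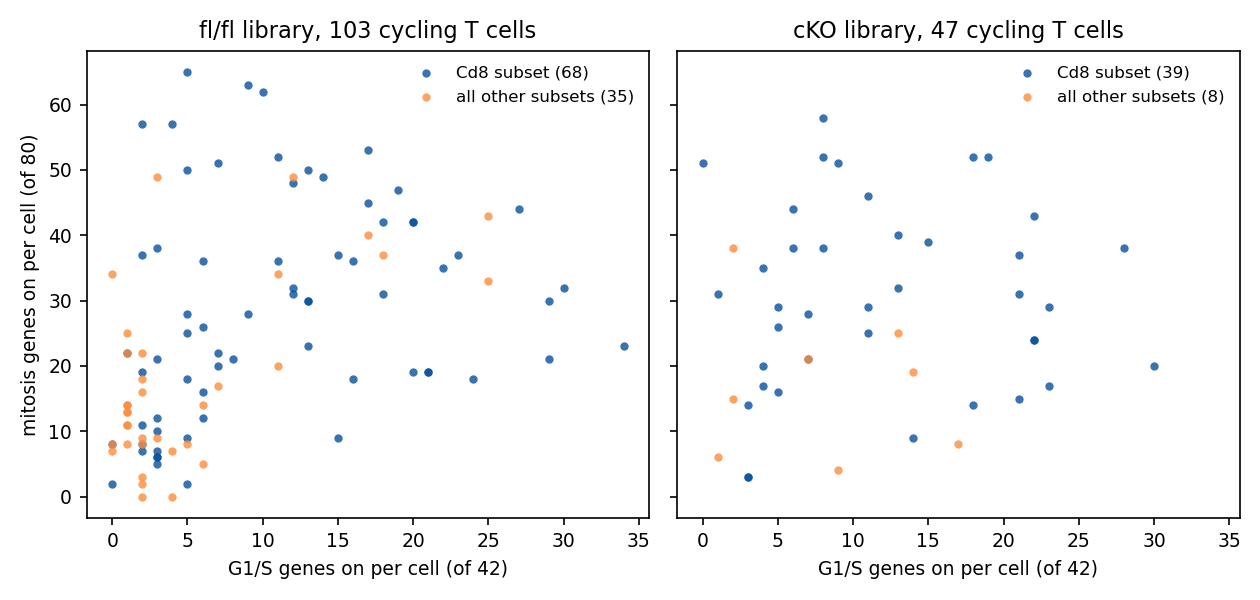
Number of mitosis genes on (of 80, y axis) against number of G1/S genes on (of 42, x axis) in each cycling T cell, fl/fl library left and cKO library right, CD8 members in blue and all others in orange. Most cells have at least 5 mitosis genes on, and 1 cell in each library has at least 5 G1/S genes without them.

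Cycling T cells of the fl/fl library were then compared gene by gene with other T cells of that library. The difference is the mean scaled value in cycling minus that in other T cells, in standard deviations of the gene, and a gene was called from a difference of 0.25. Of 775 genes above zero in at least 5% of either group, without the genes of the rule, 249 were higher in cycling T cells (32.1%) and 18 were lower (2.32%). The cells were chosen from these same profiles, so this is a description and no test. Of the 249 higher genes, 140 belonged to the lists of mitosis, G1/S and chromatin genes. Since cycling T cells had more genes above zero, other T cells were also weighted to the same distribution of genes above zero outside the cell cycle lists. With these weights 197 genes were higher (25.4%) and 23 lower (2.97%), and 196 of the 249 and 11 of the 18 were called again. Within the CD8 subset alone 268 of 809 genes were higher (33.1%) and 18 lower (2.22%), including 230 of the 249 and 11 of the 18. These CD8 counts used no weights. The median number of genes above zero outside the cell cycle lists was 208.5 in cycling and 101 in other CD8 cells. That gap was wider than the 139 and 84 over all T cells.

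Mitosis genes stood highest. Of 79 mitosis genes that passed the filter, 78 were higher and none lower, with a median difference of 0.95 against 0.10 over all 775 genes, and 78 were higher with the weights too. Cenpa, the histone H3 variant of centromeres, had a mean of 2.44 ± 2.74 (SD over 103 cells) in cycling and 0.31 ± 0.96 (SD over 800 cells) in other T cells, a difference of 2.13, and was above zero in 73.8% and 17.5% of cells. Ube2c, the ubiquitin carrier of the anaphase promoting complex, had 2.03 ± 2.14 and 0.18 ± 0.85 and was above zero in 73.8% and 8.12% of cells. Cenpf, a kinetochore protein, was 1.77 higher and was above zero in 58.3% and 2.50% of cells. Cdca8, the borealin subunit of the passenger complex that also holds Birc5, was 1.73 higher. Hmmr and Aspm, which organise spindle poles, were 1.57 and 1.51 higher, Shcbp1 was 1.52 higher and Smc2 1.49 higher. Cells varied widely, with SDs above the means for Cenpa and Ube2c, and no mitosis gene was above zero in all cycling T cells.

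Chromatin and tubulin genes followed. Of 35 genes in this list 31 were higher and none lower, with a median of 0.84. Hmgb2, a chromatin protein abundant in dividing cells, had a mean of 2.62 ± 1.59 in cycling and 0.48 ± 0.96 in other T cells and was above zero in 94.2% and 49.5% of cells, the largest difference of all genes at 2.14. Tubb5 had 2.54 ± 1.75 and 0.58 ± 0.95, a difference of 1.97, and the tubulin genes Tubb4b and Tuba1b were 1.58 and 1.504 higher. Stmn1, which destabilises microtubules, was 1.58 higher, and H2afx, the histone variant marked at DNA breaks, 1.52 higher. Beside cycling cells without a Cd3 gene, Hmgb2, Stmn1 and H2afx of cycling T cells were higher by only 0.23, 0.14 and 0.20, whereas Cenpa was 1.52 and Tubb5 0.97 higher.

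Of 41 G1/S and DNA replication genes 31 were higher and none lower, beside 32.1% and 2.32% of all genes, with a median of 0.46. With weights for the number of other genes above zero 20 were higher and 1 lower, beside 25.4% and 2.97% of all genes. Pclaf, the PCNA clamp-associated factor, had a mean of 2.14 ± 1.97 in cycling and 0.23 ± 0.93 in other T cells and was above zero in 73.8% and 9.50% of cells. Esco2, which acetylates cohesin during replication, was 1.35 higher, Asf1b, a histone chaperone, 1.05 higher and Dut, which removes dUTP, 0.83 higher. With the weights these 4 differences were 1.75, 1.28, 1.04 and 0.47.

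Genes of metabolism and protein synthesis come next. Of 23 nucleolar, ribosome biogenesis and chaperone genes 4 were higher and none lower, beside 32.1% and 2.32% of all genes, with a median of 0.08. With the weights 1 was higher and 1 lower. In the CD8 subset 9 of the 23 were higher and 1 lower, beside 33.1% and 2.22% of all genes there. The median was 0.12 against 0.09 over all genes. Ranbp1, a cofactor of the Ran GTPase, was 0.43 higher (0.30 with the weights), Eif5a 0.35 (0.23), Hspd1 0.28 (0.15) and Hsp90aa1 0.27 (0.10). Of 9 glycolysis and hypoxia genes 3 were higher and none lower, with a median of 0.18, a share near the 32.1% of all genes. The enzymes Tpi1 and Ldha were 0.50 and 0.48 higher, and 0.31 and 0.26 with the weights. Pgk1 was 0.28 higher, and 0.07 with the weights. None of 7 interferon response genes and none of 7 dissociation and stress genes was called in either direction, with medians of 0.02 and -0.02.

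**Figure D4:**
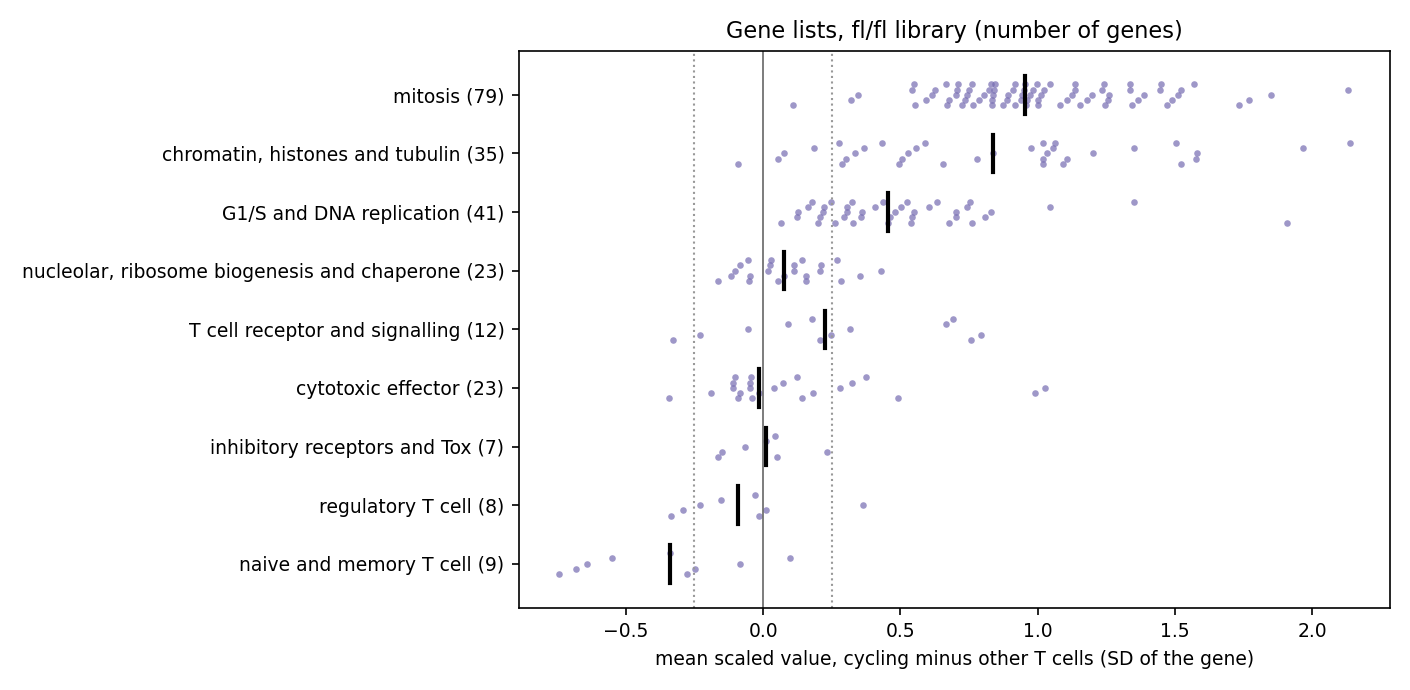
Difference in mean scaled value between cycling and other T cells of the fl/fl library (x axis, in standard deviations of the gene), 1 point per gene that passed the filter, grouped by gene list (number of genes in brackets). Black bars are list medians and dotted lines the call thresholds of -0.25 and 0.25, with the mitosis list highest (0.95) and the naive and memory list lowest (-0.34).

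The genes that were lower in cycling T cells were led by those of naive and memory T cells. Of 9 genes of this list 6 were lower and none higher, beside 2.32% and 32.1% of all genes, with a median of -0.34. With the weights 4 were lower and none higher, beside 2.97% and 25.4% of all genes, with a median of -0.20. Tcf7 (chr11:52246527-52283383), which encodes the factor TCF1 that maintains naive and memory T cells, had a mean of 0.16 ± 0.84 in cycling and 0.90 ± 1.87 in other T cells and was above zero in 7.77% and 26.5% of cells. Il7r (chr15:9506159-9529941), the receptor chain for the survival cytokine interleukin 7, had 0.11 ± 0.39 and 0.79 ± 1.85 and was above zero in 13.6% and 25.9% of cells. Lef1, a factor of the same family as Tcf7, differed by -0.64, and by -0.42 with the weights. Dapl1 was above zero in none of the 103 cycling and 10.0% of other T cells, a difference of -0.55, and Igfbp4 differed by -0.34. The interval for 0 of 103 cells reaches 3.52%. Within the CD8 subset Tcf7 differed by -0.54, Il7r by -0.39, Lef1 by -0.51 and Dapl1 by -0.83, and with the weights by -0.31, -0.21, -0.25 and -0.43.

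Other genes with lower values had mixed roles. Txk, a kinase of T cell receptor signalling, differed by -0.60 and Cd7 by -0.51. Ccnd2, the D-type cyclin of early G1 phase, differed by -0.50 and was above zero in 23.3% of cycling and 38.0% of other T cells. Cd4 differed by -0.33, alongside the low share of CD4 cells among the members. Itgae and Cxcr6, genes of tissue-resident T cells, differed by -0.34 and -0.30, and Izumo1r, Tesc and Gm12840 by -0.29, -0.28 and -0.33. For Ccl5, a chemokine of effector T cells, mean and share went opposite ways, with a mean difference of -0.34 but 73.8% of cycling and 56.2% of other T cells above zero. Cxcr6, too, was above zero in 48.5% of cycling and 31.6% of other T cells.

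Genes of the T cell receptor and its coreceptors were higher in part. Of 12 genes in this list, the Cd3 genes of the rule left out, 5 were higher and 1 lower, with a median of 0.23. Over all genes 32.1% were higher and 2.32% lower. Cd8a (chr6:71373427-71379171) had a mean of 1.86 ± 2.00 in cycling and 1.06 ± 2.00 in other T cells and was above zero in 61.2% and 32.2% of cells, and Cd8b1 was 0.76 higher. Within the CD8 subset the differences of Cd8a and Cd8b1 were 0.08 and -0.03. Trac, the constant region of the receptor alpha chain, was 0.67 higher (0.82 within the CD8 subset), and Thy1 0.69 higher (0.74). Both stayed above 0.25 with the weights in the CD8 subset, at 0.69 and 0.76. In cycling cells without a Cd3 gene Cd8a, Trac and Thy1 were above zero in 3.68%, 4.41% and 4.04% of cells. At least 3 of the 9 T cell markers outside the rule were on in 5 of these 272 fl/fl cells. Missed T cells among them were not excluded, so the shares are no measured background.

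Cytotoxic effector genes differed gene by gene. Of 23 genes 6 were higher and 1 lower, beside 32.1% and 2.32% of all genes, with a median of -0.01. In the CD8 subset 7 were higher and 3 lower, beside 33.1% and 2.22% of all genes there. Gzmk (chr13:113171630-113180965), a granzyme of effector memory CD8 cells, had a mean of 1.45 ± 2.66 in cycling and 0.42 ± 1.73 in other T cells and was above zero in 33.0% and 7.75% of cells. Within the CD8 subset it was above zero in 45.6% and 16.3% of cells, with a difference of 1.08 that was 1.07 with the weights. Gzmb (chr14:56258836-56262334), the granzyme that activates caspases in target cells, was above zero in 55.3% and 18.8% of all and 72.1% and 33.9% of CD8 T cells, with differences of 0.99 and 0.84. With the weights the difference of Gzmb was 0.45 in all T cells and 0.19 in the CD8 subset. Prf1, the pore-forming perforin, was 0.37 higher, and 0.08 with the weights. Lgals1, a galectin of activated cells, was 0.49 higher and 0.34 with the weights. Gzmk and Gzmb were above zero in 1.10% and 1.84% of cycling cells without a Cd3 gene.

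Inhibitory receptor genes were not called over all T cells. None of 7 genes of this list reached a difference of 0.25 in either direction, with a median of 0.01. In the CD8 subset 2 of the 7 were higher and none lower, beside 33.1% and 2.22% of all genes there. They were Pdcd1 at 0.38 and Rgs16 at 0.31, both without weights. Pdcd1, which encodes PD-1, was above zero in 43.7% of cycling and 19.4% of other T cells, with a mean difference of 0.23 that was 0.00 with the weights. Lag3 and Tox were above zero in 35.9% and 28.2% of cycling T cells and differed by -0.17 and -0.15. Cd160 differed by -0.07, and with the weights by -0.57. Of 8 genes of regulatory T cells 1 was higher and 2 were lower, with a median of -0.09. Tnfrsf9, which encodes the costimulatory receptor 4-1BB that activated CD8 cells also carry, was 0.36 higher and -0.02 with the weights, and Tnfrsf18 differed by -0.23. Of 11 chemokine and cytokine receptors and integrins 2 were higher and 4 lower. Beside this and the regulatory list, the shares over all genes were 32.1% higher and 2.32% lower. Itgb1 was 0.38 higher and Il2rb, a chain of the interleukin 2 receptor, 0.32 higher, and 0.35 and 0.09 with the weights.

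The last comparison set cycling T cells of the cKO library beside those of the fl/fl library. Of 757 genes above zero in at least 5% of the fl/fl members, 103 were higher by at least 0.25 in the cKO members (13.6%) and 42 were lower (5.55%). Among other T cells, of which there were many more, 6 of the same genes were higher (0.793%) and 3 lower (0.396%). The genes were kept for their share above zero in the fl/fl cycling T cells, and some were near zero in other T cells. Kif20a, for example, had means of 0.02 and 0.01 in other T cells of the fl/fl and cKO libraries. The filter thus limits the counts in other T cells, which do not show that the differences are particular to cycling T cells. With only 103 and 47 cells a mean rests on few cells, and the part of cell number in these counts was not tested. The shift of the cKO values was estimated for 564 of these genes, which were detected in fewer than 40% of the fl/fl members. With it removed 87 were higher (15.4%) and 16 lower (2.84%), and in a second form of the estimate 61 (10.8%) and 25 (4.43%). As deposited, but with only the members that lay with T cells on the UMAP, 93 of the 757 genes were higher (12.3%) and 45 lower (5.94%). Of the 103 genes called higher 66 had an estimate. Of these, 41 were called with both forms and 30 also among cells that lay with T cells on the UMAP, while 5 had the opposite sign with the first form. Of the 42 called lower 32 had an estimate, of which 7 were called in all these settings and 8 had the opposite sign.

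Replication genes are taken first. Of 41 G1/S and DNA replication genes 14 were higher and 2 lower, with a median of 0.11 against 0.01 over all 757 genes, and with the shift removed 14 of 31 were higher and none lower, with a median of 0.23. In the second form 12 were higher and 1 lower, beside 10.8% and 4.43% of all genes. Over all genes the shares higher and lower were 13.6% and 5.55% as deposited, and 15.4% and 2.84% with the shift removed. Rpa2, a subunit of the protein that coats single-stranded DNA, was on in 16 of 103 fl/fl and 22 of 47 cKO members, with means of 0.66 ± 1.73 and 1.33 ± 1.95, a difference of 0.68 that was 0.58 with the shift removed and 0.60 in the CD8 subset. Brca1, which acts in repair of broken forks, was on in 15 and 17 members, with a difference of 0.67 (0.70 removed and 0.58 in the CD8 subset). Mcm7 and Mcm6, subunits of the replicative helicase, differed by 0.61 and 0.41 (0.34 and 0.37 removed), and by 0.13 and 0.35 in the CD8 subset. Esco2 differed by 0.65 (0.53 removed) but was on in 33 of 103 and 16 of 47 members, and by 0.17 in the CD8 subset and 0.37 among cells that lay with T cells on the UMAP. Tyms differed by 0.74, with no estimate, and Dtl by 0.60 (0.18 removed).

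Mitosis genes went both ways. Of 79 genes 22 were higher and 10 lower, beside 13.6% and 5.55% of all genes, with a median of 0.04. With the shift removed 16 of 47 were higher and 5 lower, beside 15.4% and 2.84% of all genes. Kif20a, a kinesin of the central spindle, was on in 24 of 103 and 15 of 47 members and differed by 0.89 (0.81 removed), and by 0.37 among cells that lay with T cells. Ckap2 differed by 0.64 (0.77 removed) and was on in 30 and 13 members, and Spc24, a kinetochore subunit, by 0.80, with no estimate. Kif23, the kinesin partner of cytokinesis, differed by -0.62 (-0.46 removed) and Ska1, which ties kinetochores to microtubules, by -0.54 (-0.46 removed), although 12 and 8 of 47 cKO members had them on beside 23 and 21 of 103. Among cells that lay with T cells these 2 differences were -0.53 and -0.30. Hmmr was on in 46 of 103 and 13 of 47 members and differed by -0.76, and by -0.22 in the CD8 subset. Diaph3 differed by -0.64 (-0.20 removed), and Aspm went from -0.47 as deposited to 0.24 with the shift removed and 0.38 in the CD8 subset. The largest difference of all was that of 1500009L16Rik, on in 23 of 103 and 17 of 47 members, with means of 1.02 ± 2.42 and 2.19 ± 4.20 and a difference of 1.16 (1.597 removed).

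T cell genes were called in both directions. Of 23 cytotoxic effector genes 4 were higher and 2 lower, beside 13.6% and 5.55% of all genes, with a median of 0.12, and with the shift removed 6 of 14 were higher and none lower. Among cells that lay with T cells 6 of 23 were higher and 1 lower, beside 12.3% and 5.94% of all genes. Of 7 inhibitory receptor genes 2 were higher and 1 lower, and of 8 genes of regulatory T cells 2 were higher and 3 lower. With the shift removed these counts were 2 and 0 of 6, and 2 and 2 of 7. With the shift removed 15.4% of all genes were higher and 2.84% lower, and the counts of these short lists were not tested against those shares. Cx3cr1 and Klrg1, surface genes of terminal effector CD8 cells, were on in 6 and 4 of 103 fl/fl and 7 and 5 of 47 cKO members and differed by 0.37 and 0.31 (0.32 and 0.36 removed). Klrg1 is also on the list of regulatory T cells. Cd160, a receptor of activated CD8 cells, was on in 23 and 19 members and differed by 0.48 (0.32 removed), whereas in other T cells it differed by -0.35. Pdcd1 differed by 0.32 and by 0.17 in the CD8 subset, and Tcrg-C2, a gamma chain constant region, by 0.44. Tcrg-C2 lies among near-identical gamma chain genes, so its reads are uncertain. Tnfrsf4, the costimulatory receptor OX40, was on in 12 of 103 and 3 of 47 members and differed by -0.53 (-0.43 removed). Ikzf2, the factor Helios of regulatory T cells, was on in 15 and 1 members and differed by -0.33 (-0.42 removed). In the CD8 subset Tnfrsf4 and Ikzf2 differed by -0.05 and -0.02. Cd6, an adhesion receptor, differed by -0.44 (-0.63 removed), by -0.39 in the CD8 subset and by 0.22 in other T cells.

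**Figure D5:**
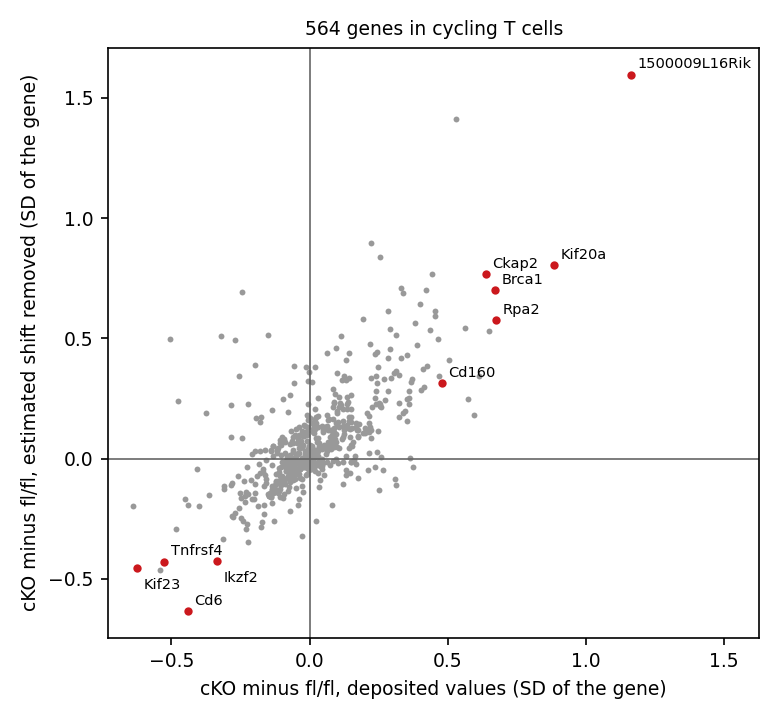
Difference between cKO and fl/fl cycling T cells for 564 genes as deposited (x axis) and with the estimated shift of the cKO values removed (y axis), both in standard deviations of the gene. Red points mark 10 genes named in the text. The points follow the diagonal loosely, and 1500009L16Rik lies farthest out at 1.16 and 1.597.

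The CD8 coreceptor genes Cd8a and Cd8b1 were 0.51 and 0.41 higher in the cKO members, whose CD8 share was larger as deposited, and differed by 0.15 and -0.03 within the CD8 subset. Trac differed by -0.35 and by -0.39 in the CD8 subset. Of 23 nucleolar and chaperone genes 5 were higher and none lower, beside 13.6% and 5.55% of all genes. Among them were C1qbp, Hspa9, Hsp90ab1 and Nop58 at 0.37, 0.36, 0.34 and 0.30. Among cells that lay with T cells these 4 differences were -0.03, 0.15, 0.26 and -0.02. Of 35 chromatin and tubulin genes 6 were higher and 5 lower, again beside 13.6% and 5.55% of all genes. Among cells that lay with T cells 1 was higher and 5 lower, beside 12.3% and 5.94% of all genes. None of 9 glycolysis and hypoxia genes, 6 interferon response genes and 6 naive and memory genes was called in either direction, with medians of -0.01, -0.02 and -0.05. Tcf7 and Lef1 differed by -0.11 and -0.05 in cycling T cells and by 0.40 and 0.55 in other T cells.

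Ahr was on in 2 of 103 fl/fl cycling T cells and in 1 of 47 cKO cycling T cells, or 1.94% (0.236% to 6.84%) and 2.13% (0.0539% to 11.3%), and in 7.75% and 4.32% of other T cells. Its mean in cycling T cells was 0.11 ± 0.43 and 0.04 ± 0.26. Ahr was above zero in 11.7% of fl/fl cycling T cells, 8.38% of other T cells and 9.56% of cycling cells without a Cd3 gene. The background of free RNA was not measured for Ahr, since no class of cells here is known to lack it. Lyz2, the lysozyme gene whose promoter drives LysM-Cre, was above zero in 12.6% of fl/fl cycling T cells and 61.8% of cycling cells without a Cd3 gene. Foxp3 was on in 2 of 103 and 1 of 47 cycling T cells.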

How the data were processed

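Single-cell RNA profiles were measured in 2 libraries, each of pooled tumors of 3 mice. The authors deposited scaled values, a score with a cap of 10, of 2000 genes in 9773 cells, and UMAP coordinates, a second score. Per the submitters' processing notes, Cell Ranger 3.0.0, Seurat 3.1.4 and mm10/GRCm38 were used, in roles that the notes do not give. No cell filter or doublet removal is given in the sources used here, and no doublet caller was run on scaled values. Library sizes are unknown, so cells could not be thinned to a common depth.

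Cells were assigned to libraries by the suffix of their names. In the fl/fl library a median of 96.0% of cells per gene had the lowest value, taken as zero, and 55.7% of cKO cells had that value. The shift of the cKO values was estimated as the 0.3 quantile over the 30 nearest cKO cells in 30 principal components. The second form used 50 neighbours and 0.5 times the share of fl/fl members at zero as the quantile. The gene differences and the first form of the shift estimate were tried on fl/fl cells with planted shifts. Neighbours there came from the values before the planted shift, unlike in the cKO estimate. The weights and the second form were not tried in this way. Weights used quintiles of the members. Python 3.11.15, numpy 2.4.6, pandas 2.3.3, scipy 1.17.1 and scikit-learn 1.9.0 were used. The members, gene lists and marker lists were chosen with earlier results of these data known. Named genes were those of the rule, the 15 highest and 15 lowest of the comparison within the fl/fl library, the 10 highest and 10 lowest between libraries, up to 4 per list, and Ahr, Lyz2, Foxp3, Cd4, Cd8a and Cd8b1. Mcm6 was chosen after its values were seen, and 1 gene that the rule names is not reported here. The UMAP restriction, the CD8-only comparison, the weights on genes outside the cell cycle lists, the subtraction in both libraries and the exclusion of shared barcodes were added after seeing the data.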

Additional observations from a re-analysis of the deposited data

How the results depend on the processing

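Of 78 alternatives over the 8 results, 63 stayed within the counting interval or within 1.5 times the main count, 15 moved further and none reversed. With genes on from 0.5, the cKO minus fl/fl difference was -0.393 points of all cells and -3.61 points of T cells, and 67 genes were lower in the cKO members. With 3 cycle genes the T cell difference was -3.73 points. With 2 Cd3 genes the CD8 share of fl/fl members was 75.4%, and 28 genes were lower in cycling T cells. Called from 0.5, 155 genes were higher and 7 lower in cycling T cells, and 18 were higher and 6 lower in cKO members. Weights on all genes above zero gave 31 lower genes in cycling T cells. With the shift removed 16 genes were lower in cKO members, in the second form 61 were higher and 25 lower, and with subsets weighted as in the fl/fl library 79 were lower. Leaving out barcodes shared by the libraries moved neither share beyond its interval. The cause of these shifts was not tested. No paired analysis was possible because each genotype had 1 library, so the libraries share a single replicate number. The number of cells, the cap on values and the unknown depth limit all of these values.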
